A study of Arabidopsis thaliana with 22 samples.

Results

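The differentiation zone (DZ) of roots was compared with the meristematic-elongation zone (MEZ) in plants that had received the peptide SCOOP12 at 100 nM. The libraries were chosen by their titles, which give the peptide, the zone, the genotype and the replicate number: 11 of 22 libraries carried SCOOP12, 6 of DZ and 5 of MEZ. Both genotypes were in the Ws background: the proscoop12 mutant, with 3 DZ and 3 MEZ libraries, and wild-type Ws, with 3 DZ and 2 MEZ libraries. Replicates were numbered 1, 3 and 4, and Ws MEZ with SCOOP12 had no replicate 1. The other 11 libraries came from the same genotypes and zones in water, 5 of DZ and 6 of MEZ. All plants were 11 days old and grew in short days. Root pieces were sequenced as a whole, so fewer cells of a type and less RNA per cell cannot be told apart.

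A root grows from its tip. Cells divide in the meristem, lengthen in the elongation zone, and in the differentiation zone form root hairs, the Casparian strip, suberin and vessels. SCOOP12 is a secreted peptide cut from the precursor PROSCOOP12. Peptides of this family are perceived at the cell surface by the receptor kinase MIK2 and set off immune signalling, and in roots SCOOP12 is known to act on growth and reactive oxygen. Non-coding RNAs include small RNA precursors, the snRNAs and snoRNAs of splicing and rRNA modification, antisense transcripts of coding genes, and many loci with no known role.

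The files hold 5224 non-coding transcripts, 1 per locus, and 0 of them are protein-coding. Hence 0 of 16 coding marker genes of the zones had a value, and the zone labels could not be checked against markers. The treated libraries held 474436 to 1575523 reads on these transcripts, and 81921 to 160463 reads outside ribosomal and organellar loci. A total of 589 loci had enough reads to be tested. Levels are CPM, counts scaled to a library total of 1000000 reads on the tested loci, after TMM scaling. Replicate 1 stood apart: within a group it correlated with replicates 3 and 4 at 0.87 to 0.92, whereas 3 and 4 correlated at 0.946 to 0.958 (log2 CPM across loci). The library titled Ws DZ SCOOP12 replicate 3 has a file named as proscoop12 DZ control, and the title was kept. Its level of AT5G00585 was 193 CPM, against 105 to 153 CPM in the other DZ libraries with SCOOP12 and 20.9 to 44.8 CPM in DZ water libraries. These values were looked up after the data had been seen. The mismatch is mutual: proscoop12 DZ control replicate 3, which enters the water results, has a file named as Ws DZ SCOOP12. That library had 23.2 CPM of AT5G00585. At AT1G06963, also looked up after the data had been seen, it had 46.5 CPM, against 31.9 to 50.8 CPM in the other proscoop12 DZ libraries. Ws DZ SCOOP12 replicate 3 had 14.4 CPM there, against 1.24 to 17.1 CPM in the other Ws DZ libraries.

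With SCOOP12 the zones differed at 221 of 589 loci, 37.5% of those tested, by edgeR's quasi-likelihood test with genotype and replicate number as blocks and a Benjamini-Hochberg adjusted p under 0.05. Of these, 114 loci (19.4%) were higher in DZ and 107 (18.2%) were lower. At 196 of the 221 the direction was the same in all 5 pairs of DZ and MEZ libraries of equal genotype and number, which held for 43.1% of all tested loci. At 52 loci (8.83%) the 6 DZ libraries did not overlap the 5 MEZ libraries, and all 52 were among the 221. The 28 loci named for the zone difference, 14 each way, were chosen from these, so their lack of overlap is no finding. Without the replicate block 47 loci passed, all among the 221, and 120 passed without the block in replicates 3 and 4 alone. Without replicate 1, with the block, 208 passed.

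The AGI locus AT2G05165, a misc_RNA on chromosome 2, had the largest difference among the DZ-high loci named here. It had 24.9 CPM in the lowest DZ library, a median of 47.5 CPM and 63.4 CPM in the highest. Its MEZ values were 4.65, 3.49 and 11.4 CPM in proscoop12 and 9.99 and 11.9 CPM in Ws. They rest on 33 reads in total over the treated MEZ libraries, against 268 over the treated DZ libraries. Every DZ library was above every MEZ library, as the choice of named loci required, and the lowest DZ values were those of replicate 1. The log2 fold change of DZ over MEZ was 2.53 (SE 0.26, edgeR adjusted p 3.07e-07), and in water it was 1.29 (edgeR adjusted p 0.0125). The same sequence is found in the mitochondrial genome. Its first 120 of 406 bases lie at chr2:3275992-3276111 on the plus strand of RefSeq's TAIR10.1, and again at positions 294029 to 294148 of the mitochondrial genome. Capitals would mark bases that differ between them; over the whole locus 0 bases differed.
AT2G05165: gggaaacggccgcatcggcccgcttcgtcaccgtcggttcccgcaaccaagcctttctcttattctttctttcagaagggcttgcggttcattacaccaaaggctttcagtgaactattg

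Of the tested nuclear loci, 14 share at least 90% of their length with the mitochondrial genome at 95% identity or more. All 14 lie on chromosome 2 between positions 3275992 and 3505260, where Arabidopsis carries a large insertion of mitochondrial DNA. Reads of mitochondrial transcripts and reads of the nuclear copies cannot be told apart there. With SCOOP12, 12 of the 14 were higher in DZ and 1 was lower, where 19.4% and 18.2% of all tested loci were called. Their median log2 fold change was 1.24, against 0.00071 over all 589 loci. In water 5 were higher and 1 was lower, where 25.5% and 22.9% of all tested loci were called. The median in water was 0.50 against 0.03 over all loci. Their summed level was 1113, 1863 and 2216 CPM in proscoop12 DZ and 955, 1744 and 2351 CPM in Ws DZ, in the order of replicates 1, 3 and 4. In MEZ it was 748, 1077 and 1216 CPM in proscoop12, and 1303 and 1315 CPM in replicates 3 and 4 of Ws. Both DZ libraries of replicate 1 fell within the range of MEZ, the other 4 DZ libraries were above it, and DZ was above MEZ in each of the 5 pairs. Without replicate 1, 12 were higher and 0 lower, and without the replicate block 6 were higher and 0 lower. This group was put together after its values had been seen, and its part in the other results was not tested. With the 14 loci taken out before scaling, 206 of 575 loci passed.

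**Figure D1:**
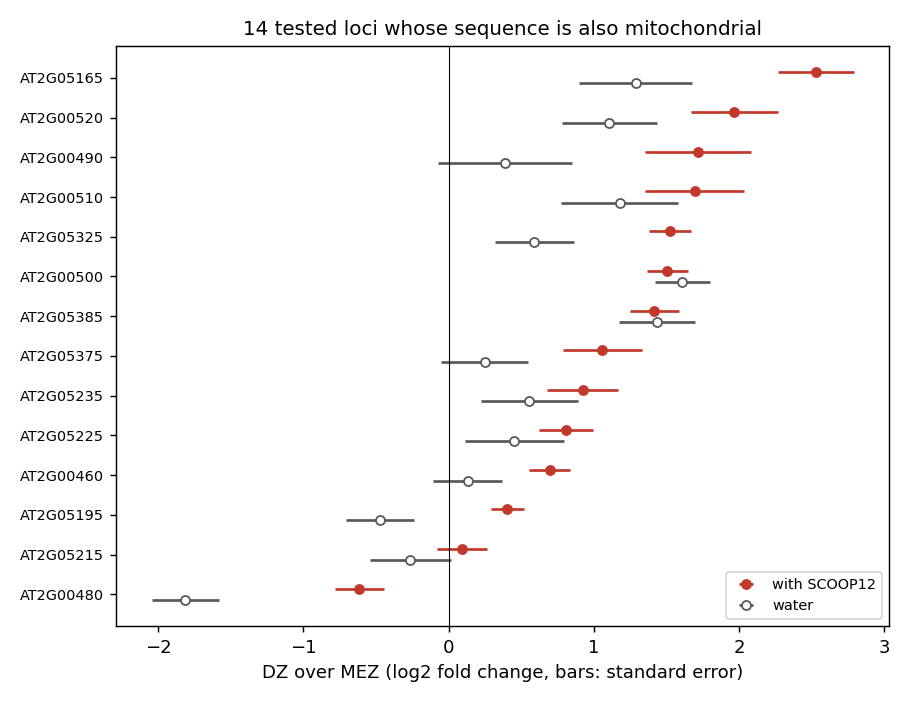
Log2 fold change of DZ over MEZ (x axis) for the 14 tested loci on chromosome 2 whose sequence is also mitochondrial (y axis), with SCOOP12 (filled) and in water (open); bars are standard errors. With SCOOP12, 13 of the 14 points lie to the right of 0, from 0.09 to 2.53, and AT2G00480 lies at -0.62.

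Among the named loci, 2 further members were in this group. AT2G00520 had 14.9 to 45.0 CPM in DZ with a median of 29.8, against 4.65, 10.5 and 10.3 CPM in proscoop12 MEZ and 3.75 and 14.8 CPM in Ws MEZ. Its MEZ values rest on 35 reads in total. AT2G05385 had 66.0 to 139.6 CPM in DZ with a median of 117.7, against 24.4, 48.9 and 57.1 CPM in proscoop12 MEZ and 60.0 and 32.6 CPM in Ws MEZ. Both were higher in every DZ library than in any MEZ library, as the choice of named loci required. Their log2 fold changes were 1.97 (SE 0.30, edgeR adjusted p 3.07e-05) and 1.42 (SE 0.17, edgeR adjusted p 1.77e-06). AT2G00480, the member that was lower in DZ, had a log2 fold change of -0.62 with SCOOP12 (edgeR adjusted p 0.0066) and -1.82 in water.

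Transcripts annotated on the organellar chromosomes themselves were tested too. Of the 5 tested, 4 were higher in DZ with SCOOP12 and 0 were lower. Over all tested loci 19.4% were called higher and 18.2% lower. Without the replicate block 0 of the 5 were called higher and 0 lower. ATMG00020, a mitochondrial locus that took more reads than the other 4, had a mean of 257680 CPM in DZ and 164020 CPM in MEZ, a log2 ratio of 0.57 (SE 0.19, edgeR adjusted p 0.0218). In water that difference was 1.70. The plastid loci ATCG00950 and ATCG00920 were at 0.58 and 0.44, and the mitochondrial ATMG01390 was at 0.63. The share of all reads on organellar loci was 28.8 ± 11.2% in DZ (SD, n = 6) and 19.6 ± 1.44% in MEZ (SD, n = 5). Replicate 1 of DZ was high, with 38.2% in proscoop12 and 46.9% in Ws, and the other 4 DZ libraries lay at 19.7% to 25.2%. The difference of 9.18 percentage points had a two-sided exact permutation p of 0.0909, in a test that ignores the replicate numbers. Within pairs, DZ minus MEZ was 17.0, 4.745 and 4.88 points in replicates 1, 3 and 4 of proscoop12, and 1.85 and -0.67 points in replicates 3 and 4 of Ws. It was 2.70 points without replicate 1 (exact permutation p 0.143). The p was 0.0317 without Ws DZ replicate 3 and 0.0238 without Ws DZ replicate 4, by the same exact permutation test. Organellar shares in water were 39.3 ± 2.86% in DZ (SD, n = 5) and 19.2 ± 1.998% in MEZ (SD, n = 6).

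Other DZ-high loci have no mitochondrial counterpart. AT1G08687, a spliced misc_RNA at chr1:23963486-23964372 that overlaps no coding exon, had 354 to 531 CPM in DZ with a median of 465.96. The MEZ libraries had 97.6, 186.3 and 197.6 CPM in proscoop12 and 182.4 and 161.6 CPM in Ws. The zones did not overlap, as the choice of named loci required, and the lowest value of each zone belonged to replicate 1. The log2 ratio of the zones was 1.52 (SE 0.11, edgeR adjusted p 7.07e-09), and 1.87 in water. AT2G41312, an ncRNA at chr2:17225523-17226693, had 56.3 to 145.7 CPM in DZ with a median of 66.3, against 30.2, 16.3 and 33.1 CPM in proscoop12 MEZ and 14.99 and 32.6 CPM in Ws MEZ. The highest DZ value was Ws replicate 1, and the log2 fold change was 1.48 (SE 0.23, edgeR adjusted p 3.16e-05).

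AT3G27884, an ncRNA of 4 exons, was among the more abundant transcripts. It had 4590 to 10757 CPM in DZ with a median of 6077, against 4089, 3982 and 3532 CPM in proscoop12 MEZ and 2926 and 2391 CPM in Ws MEZ. The fitted log2 ratio was 0.89 (SE 0.15, edgeR adjusted p 0.000128), and the choice of named loci required zones that do not overlap. GUT15 (AT2G18440), an mRNA-like non-coding RNA first known as an unstable transcript of tobacco, had 288 to 696 CPM in DZ with a median of 594. In MEZ it had 197.6, 314.4 and 363.1 CPM in proscoop12 and 286 and 400 CPM in Ws. The zones overlapped through replicate 1, and GUT15 was higher in DZ in all 5 pairs. For DZ over MEZ the log2 ratio was 0.87 (SE 0.11, edgeR adjusted p 3.63e-06), and without the replicate block it was 0.77 (edgeR adjusted p 0.0911).

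The rest of the 14 DZ-high loci chosen by the naming rule had log2 fold changes of 0.60 to 1.26. They were AT4G06790, AT1G07457, AT2G37362, AT4G08735, AT2G09610, AT4G40065, AT2G13665 and AT1G34418. AT4G08735 and AT1G07457 did not pass in water, where their log2 fold changes were 0.09 and 0.78; the difference between treatments was 0.66 (edgeR adjusted p 0.308) and 0.20 (edgeR adjusted p 0.845). Without the replicate block the calls of AT1G07457, AT1G34418, AT2G09610, AT2G13665 and AT4G08735 were lost (edgeR adjusted p 0.0513 to 0.0784). AT2G09610 was the only named DZ-high locus whose call depended on a library. Its log2 fold change of 0.68 (edgeR adjusted p 0.028) became 0.62 without proscoop12 MEZ replicate 1 (0.071), 0.70 without Ws MEZ replicate 3 (0.0589), 0.65 without Ws DZ replicate 3 (0.0695) and 0.63 without Ws MEZ replicate 4 (0.0653).

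**Figure D2:**
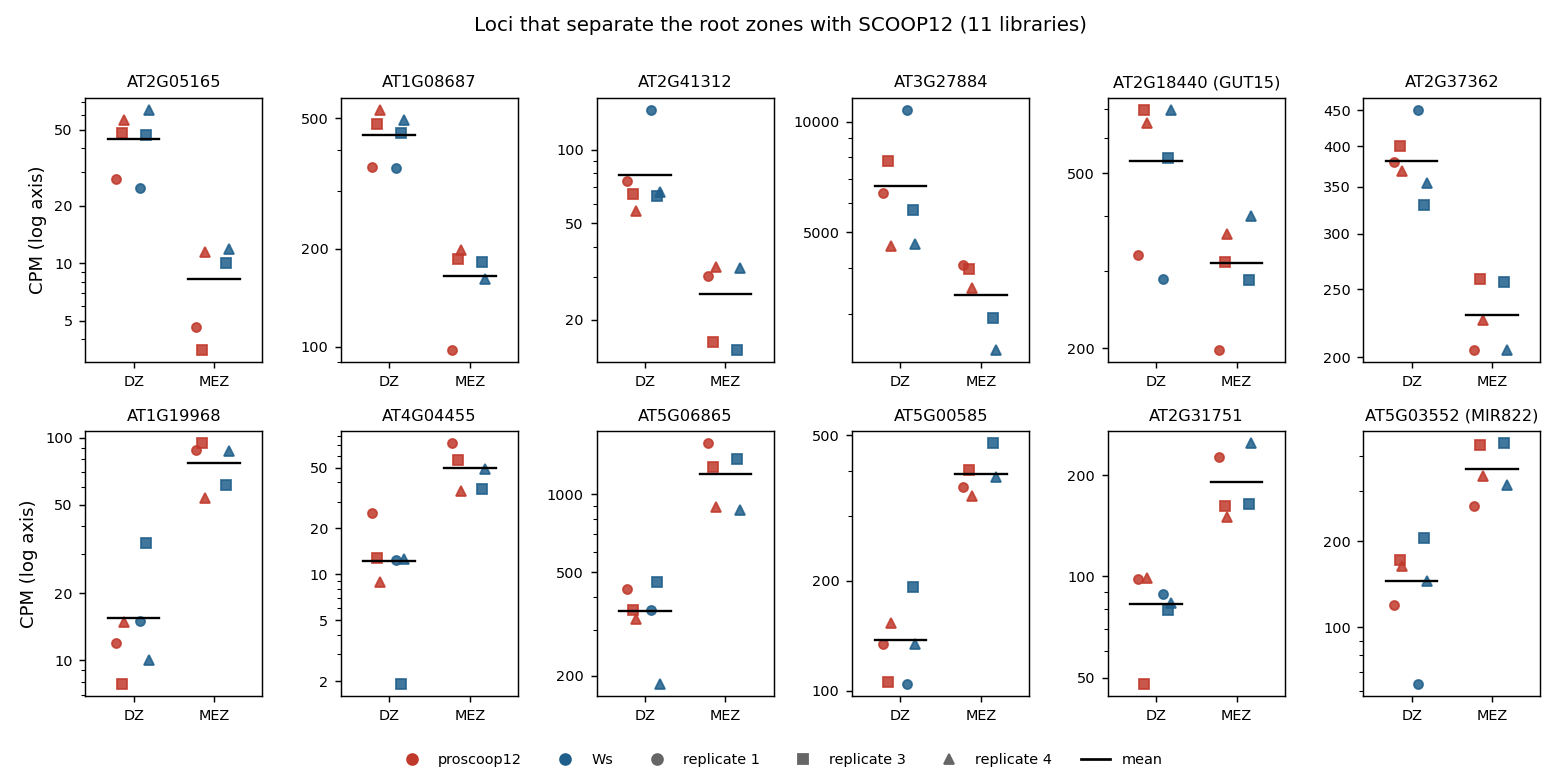
CPM (y axes, log scale) of 12 loci in the 6 DZ and 5 MEZ libraries with SCOOP12; symbols give the replicate, colours the genotype and lines the mean. The upper row is higher in DZ and the lower row higher in MEZ, and the zones overlap for GUT15; the other 11 were chosen among loci whose zones do not overlap.

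Among the 14 named loci lower in DZ, AT1G19968 had the largest difference. This ncRNA lies at chr1:6930261-6930985 and overlaps no coding exon. It had 7.82 to 33.6 CPM in DZ with a median of 13.4, against 88.3, 94.3 and 53.7 CPM in proscoop12 MEZ and 61.2 and 87.5 CPM in Ws MEZ. The highest DZ library was Ws replicate 3, and the naming rule required it to lie below every MEZ library. On the log2 scale DZ over MEZ was -2.36 (SE 0.28, edgeR adjusted p 1.77e-06) with SCOOP12 and -3.57 in water. AT5G00585, a misc_RNA with no coding exon on either strand, had 105 to 193 CPM in DZ with a median of 134. Its MEZ values were 361, 401 and 340 CPM in proscoop12 and 475 and 384 CPM in Ws. The log2 fold change was -1.50 (SE 0.14, edgeR adjusted p 1.1e-07) with SCOOP12 and -1.58 in water, although its mean level was 137 CPM in treated DZ and 27.9 CPM in water DZ.

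The promoter of AT1G19968, the leading named locus of the DZ-low direction, is shown from 250 bases before to 50 bases after the annotated start, in RefSeq's TAIR10.1. Capitals mark TATAAA, searched on both strands. It lies at chr1:6930011-6930310 on the plus strand.
AT1G19968: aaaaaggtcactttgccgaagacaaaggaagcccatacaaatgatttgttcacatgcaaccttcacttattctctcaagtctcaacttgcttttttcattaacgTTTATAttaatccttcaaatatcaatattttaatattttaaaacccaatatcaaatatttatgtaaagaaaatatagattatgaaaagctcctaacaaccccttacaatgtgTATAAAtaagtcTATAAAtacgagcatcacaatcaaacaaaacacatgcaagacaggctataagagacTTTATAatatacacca

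Motif shares give the background for these letters. TATAAA was present in 47.3% of promoters of the DZ-high loci, 43.0% of those of the DZ-low loci and 42.5% of 5181 promoters of listed loci. TTGAC, the core of the W box bound by WRKY factors, was present in 55.5%, 48.6% and 46.2% of the same sets. AACGG, the core of the mitosis-specific activator element, was present in 32.7%, 21.5% and 23.1%. TGGGCC, the site II element of many growth genes, was present in 11.8%, 10.3% and 7.99%. CACGTG, the G box, was present in 6.36%, 5.61% and 3.80%, and TTTCCCGC, an E2F-like site, in 0%, 0.935% and 0.425%. The called loci come from the tested loci, whose 584 promoters had TATAAA in 44.2%, TTGAC in 49.5% and AACGG in 26.5%. The tested promoters had TGGGCC in 15.2%, above both called sets, CACGTG in 4.11% and TTTCCCGC in 0.34%. Such matches describe the letters in these windows and are not binding sites.

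Of the 14 named DZ-low loci, 8 lie opposite exons of coding genes, as do 300 of all 589 tested loci. The library kit keeps strand, but the strand counted is not given in the sources used here, so reads of such a locus and of its coding partner cannot be told apart. AT5G06865, opposite PGIP1, a polygalacturonase-inhibiting protein of defence against fungi, had 185.8 to 459.6 CPM in DZ with a median of 358.1. The MEZ libraries had 1567, 1267 and 889.5 CPM in proscoop12 and 1367 and 871.6 CPM in Ws. Its log2 fold change was -1.78 (SE 0.14, edgeR adjusted p 8.98e-09) with SCOOP12 and -0.72 in water, and the difference between these was -1.07 (edgeR adjusted p 0.0133). It was the only named DZ-low locus with a zone difference called larger with the peptide than in water.

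Other partners belong to families with defence or wall roles. AT4G03985, opposite a chitinase family gene, had 14.5 to 39.8 CPM in DZ with a median of 23.3, against 157, 67.5 and 69.7 CPM in proscoop12 MEZ and 67.5 and 86.0 CPM in Ws MEZ. The fitted log2 ratio was -1.86 (SE 0.18, edgeR adjusted p 1.94e-07). AT2G00870, opposite AT2G34930 of the leucine-rich-repeat disease resistance family, had 44.4 to 53.5 CPM in DZ, against 157, 113 and 94.8 CPM in proscoop12 MEZ and 109 and 138 CPM in Ws MEZ. For DZ over MEZ the log2 ratio was -1.39 (SE 0.15, edgeR adjusted p 5.21e-07). AT3G04615, opposite a dirigent-like gene, had 45.3 to 123 CPM in DZ with a median of 76.7 and 307, 204 and 139 CPM in proscoop12 MEZ and 200 and 163 CPM in Ws MEZ. In none of these did a DZ library reach the MEZ range, as the naming rule required. The partners were read from the annotation after the loci had been named, and their class was not tested.

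Hormone and signalling genes were other partners. AT4G04455, opposite GRH1, the F-box protein also called AFB1 of auxin perception, had 1.92 to 25.2 CPM in DZ with a median of 12.6. In MEZ it had 72.1, 55.9 and 35.4 CPM in proscoop12 and 36.2 and 48.9 CPM in Ws, a log2 ratio of -2.11 (SE 0.30, edgeR adjusted p 1.16e-05). AT2G31751, opposite UGT74D1, a glucosyltransferase that acts on auxins, had 47.9 to 98.7 CPM in DZ with a median of 85.9. Its MEZ values were 227, 162 and 151 CPM in proscoop12 and 164.9 and 249.03 CPM in Ws, a log2 ratio of -1.27 (SE 0.15, edgeR adjusted p 1.77e-06). AT2G09225, opposite the calmodulin gene CAM2, and AT2G09785, opposite the ubiquitin extension gene UBQ6, had log2 fold changes of -1.46 and -0.95. Each of these 4 loci was lower in every DZ library than in any MEZ library, as the naming rule required. AT2G00560 and AT2G05135, misc_RNA loci with no coding exon on either strand, were at -1.20 and -1.16. The calls of all 14 named DZ-low loci were kept without the replicate block, and in every fit that left out a library.

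**Figure D3:**
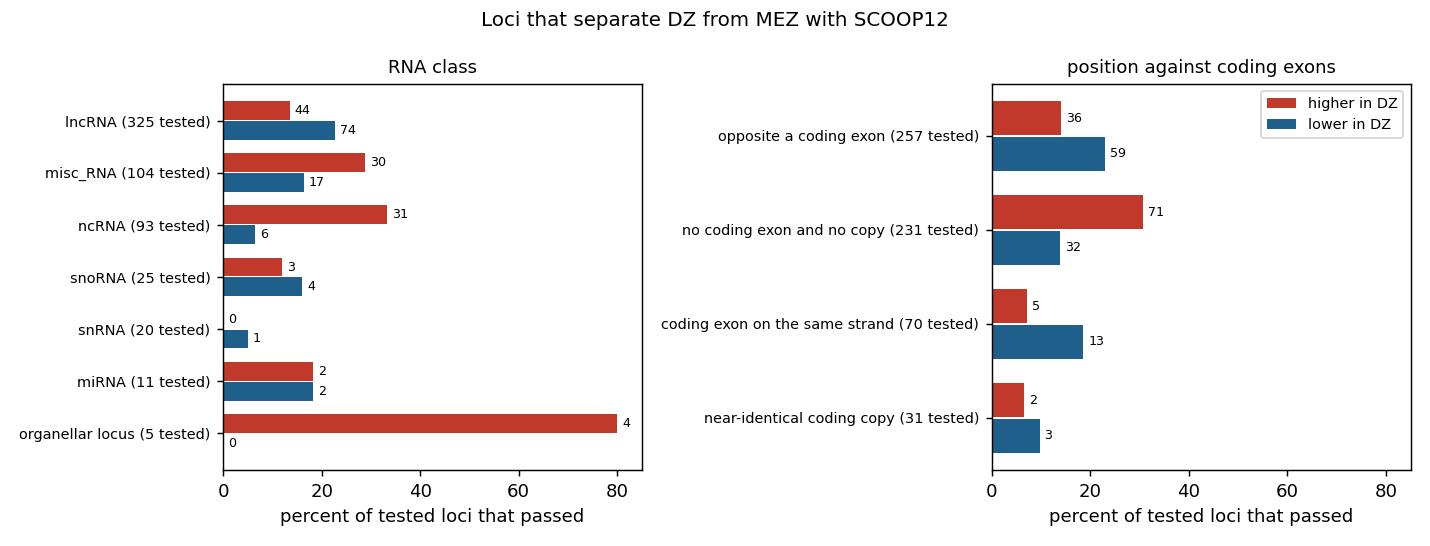
Share of tested loci (x axes, percent) that were higher (red) or lower (blue) in DZ with SCOOP12, by RNA class (left, classes with at least 5 tested loci) and by position against coding exons (right); the number beside each bar is the count of loci. On the right, loci with a coding exon on both strands count as same strand. Of 93 ncRNA loci 31 were called higher in DZ and 6 lower, and of 325 lncRNA loci 44 higher and 74 lower. No test between classes was made.

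The calls were counted by RNA class, with no test between classes. Over all tested loci 19.4% were called higher in DZ and 18.2% lower. Of 93 tested ncRNA loci, 31 were higher in DZ and 6 lower, with a median log2 fold change of 0.20 over all 93. Of 325 lncRNA loci, 44 were higher and 74 lower, with a median of -0.11. Of 104 misc_RNA loci, 30 were higher and 17 lower, and 13 of the 104 were mitochondrial copies. The ncRNA split was 34 against 6 and the lncRNA split 55 against 70 when ribosomal and organellar loci were removed before scaling. Without the replicate block the ncRNA split was 3 against 3, the lncRNA split 5 against 16 and the misc_RNA split 11 against 5. The same was done by position. Of 231 loci with no coding exon and no near-identical coding copy, 71 were higher in DZ and 32 lower. The 231 include mitochondrial copies such as AT2G05165, AT2G00520 and AT2G05385. Of 257 opposite a coding exon and with none on the same strand, 36 were higher and 59 lower. Without the replicate block the splits of the 231 and the 257 were 14 against 11 and 5 against 14. Counting also loci with a coding exon on both strands, 300 tested loci lay opposite a coding exon, 38 called higher and 69 lower.

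Among the miRNA precursors 11 were tested, 2 were higher in DZ and 2 lower; the 36.4% called is close to the 37.5% of all loci. MIR822 (AT5G03552) had the largest difference. The miR822 pair is cut from a young hairpin, and miR822 is known to target transcripts of proteins with cysteine- and histidine-rich domains. The precursor had 63.5 to 206 CPM in DZ with a median of 155. The MEZ libraries had 267, 434 and 339 CPM in proscoop12 and 441 and 314 CPM in Ws. The zones did not overlap, as the naming rule required. On the log2 scale DZ over MEZ was -1.22 (SE 0.13, edgeR adjusted p 5.08e-07) with SCOOP12 and -3.18 in water. The difference between these, 1.87, passed (edgeR adjusted p 0.0157): the zones were closer with the peptide, at means of 145 CPM in DZ and 359 CPM in MEZ with SCOOP12, and 57.8 CPM in DZ and 432 CPM in MEZ in water. The mature sequences of the precursors that passed are given because reads on a precursor do not show which arm accumulates. They are from RefSeq's TAIR10.1 annotation, with bases 2 to 8, the seed, in capitals.
miR822-5p: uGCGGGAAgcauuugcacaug
miR822-3p: uGUGCAAAugcuuucuacagg
miR414: uCAUCUUCaucaucaucguca
miR415: aACAGAGCagaaacagaacau
miR5642a: uCUCGCGCuuguacggcuuu

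These seeds all differ. MIR414 had 45.3 to 72.2 CPM in DZ with a median of 62.5, against 47.6, 17.5 and 42.2 CPM in proscoop12 MEZ and 32.5 and 26.7 CPM in Ws MEZ. The log2 ratio of the zones was 0.83 (SE 0.21, edgeR adjusted p 0.0043) with SCOOP12 and 1.78 in water. MIR415 lies on a coding exon of the same strand, so its reads may belong to that gene; it was at 0.67 with SCOOP12 and 1.77 in water. MIR5642a had 71.9 to 183.1 CPM in DZ and 156.9 to 213.5 CPM in MEZ, a log2 ratio of -0.60 (edgeR adjusted p 0.00136). It lies opposite a coding exon, has a near-identical coding copy and is among the loci taken out with the ribosomal ones, so its reads are uncertain. Only the MIR822 call was kept without the replicate block among these 4.

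TAS1A (AT2G27400) is cut under the guidance of miR173 and gives trans-acting small interfering RNAs. It had 74.3 to 108 CPM in DZ with a median of 87.1, against 150, 107 and 110 CPM in proscoop12 MEZ and 116 and 93.4 CPM in Ws MEZ. The zones overlapped, and TAS1A was lower in DZ in all 5 pairs. Its log2 fold change was -0.41 (SE 0.13, edgeR adjusted p 0.0166) with SCOOP12 and -0.25 in water (edgeR adjusted p 0.291). The call was lost without the replicate block (-0.35, edgeR adjusted p 0.256), without replicate 1 (-0.37, 0.0565) and with all 22 libraries in the fit (-0.39, 0.0782). It was also lost without proscoop12 MEZ replicate 1 (-0.34, edgeR adjusted p 0.0846), without Ws MEZ replicate 3 (-0.37, 0.0728) and without proscoop12 DZ replicate 3 (-0.36, 0.0645). The stretch of the transcript that pairs with miR173-5p spans positions 367 to 388 of 930, at chr2:11722081-11722102 on the minus strand. It is shown with miR173-5p, seed in capitals; capitals in the site mark its 2 mismatches with the reverse complement of the miRNA.
miR173-5p: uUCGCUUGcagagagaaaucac
TAS1A site: gtgatttTtctctAcaagcgaa

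Small nuclear RNAs serve splicing, and small nucleolar RNAs guide the modification of rRNA. Of 25 snoRNA loci, 3 were higher in DZ and 4 lower, and of 20 snRNA loci 0 were higher and 1 lower, against 37.5% of all loci called. AT1G06553, a snoRNA with no coding exon on either strand, had 16.3 to 32.4 CPM in DZ with a median of 20.5, against 55.8, 45.4 and 37.7 CPM in proscoop12 MEZ and 78.7 and 41.5 CPM in Ws MEZ. For DZ over MEZ the log2 ratio was -1.25 (SE 0.22, edgeR adjusted p 0.00014). SNOR77 had 3.60 to 12.8 CPM in DZ and 13.7 to 26.8 CPM in MEZ, a log2 ratio of -1.40 (edgeR adjusted p 0.00308). These values rest on 49 reads in total in DZ and 88 in MEZ. U2.2, an snRNA of the spliceosome with a near-identical coding copy, was at -0.73 (edgeR adjusted p 0.0455). That call was lost in 9 of the 11 fits that left out a library, at -0.62 to -0.80 (edgeR adjusted p 0.0584 to 0.14).

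Loci opposite genes of root pathways were followed through 8 lists of 314 genes, on suberin, the Casparian strip, root hairs, cell division, the meristem and auxin, cell walls, peroxidases and immunity. Opposite the 266 listed genes in the annotation lie 18 non-coding loci, and 8 of these loci were tested. With SCOOP12, 1 was higher in DZ and 3 were lower, where 37.5% of all tested loci were called. In water 3 were higher and 4 lower, where 48.4% of all were called. Listed genes were matched by name, and 15 of 35 were found for the list of the Casparian strip and dirigent proteins. The counts leave out AT3G04615 and AT4G06135, which lie opposite dirigent-like genes. AT2G37362, opposite ABCG2, a transporter of the suberin barrier, had 330 to 451 CPM in DZ with a median of 375. In MEZ it had 205, 259 and 226 CPM in proscoop12 and 256 and 205 CPM in Ws, a log2 ratio of 0.72 (SE 0.11, edgeR adjusted p 3.53e-05). AT3G22121, opposite CWLP, a proline-rich cell wall-plasma membrane linker, had 13.6 to 58.5 CPM in DZ with a median of 27.4. Its MEZ values were 130, 157 and 56.0 CPM in proscoop12 and 231 and 105 CPM in Ws, a log2 ratio of -2.18 (SE 0.21, edgeR adjusted p 1.66e-07). AT1G07603, opposite the alpha-tubulin gene TUA2, was at -1.04 (edgeR adjusted p 1.08e-05), and at -0.84 without the replicate block (edgeR adjusted p 0.097). AT5G06865 opposite PGIP1 is described above.

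The suberin and cutin list has 3 tested loci: 1 was higher in DZ with SCOOP12, against 19.4% of all tested loci, and all 3 in water, against 25.5%. AT4G03585, opposite CYP86A2, a fatty acid hydroxylase of cutin synthesis, had 35.3 to 153 CPM in treated DZ with a median of 54.5. In treated MEZ it had 54.6, 52.4 and 59.4 CPM in proscoop12 and 37.5 and 75.6 CPM in Ws. Means in water were 263 CPM in DZ and 31.5 CPM in MEZ. On the log2 scale DZ over MEZ was 0.09 with SCOOP12 (edgeR adjusted p 0.804) and 3.09 in water, and the difference of -2.99 passed (edgeR adjusted p 9.18e-05). AT1G04247, opposite KCS2, an elongase of suberin fatty acids, was at -0.24 with SCOOP12 and 1.03 in water, a difference of -1.23 (edgeR adjusted p 0.0138). Without replicate 1 it was lower in treated DZ, at -0.44 (edgeR adjusted p 0.0272). AT2G37362 opposite ABCG2 had a difference of -0.16 (edgeR adjusted p 0.674).

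The zone difference itself was then set against that in water, from libraries that the treated comparison does not share. The loci were those kept by their reads in the treated libraries. In water 285 of 589 loci passed (48.4%), 150 higher in DZ (25.5%) and 135 lower (22.9%), and 163 loci did not overlap between zones (27.7%). Loci that passed in both treatments in the same direction numbered 88 higher in DZ and 85 lower. They made up 78.3% of the loci called with SCOOP12 and 60.7% of those called in water. Of these, 146 had the smaller zone difference with SCOOP12. Across the tested loci the median absolute log2 fold change was 0.39 with SCOOP12 and 0.66 in water, and both sets of fold changes correlated at 0.78 (Pearson, across loci, which are not independent replicates). In each of the 5 treated pairs the SD of log2 DZ over MEZ across loci was 0.77 to 0.998, below the 1.15 to 1.42 of the 5 water pairs. These SDs came from CPM plus 1 and also hold counting noise, which was not separated. Reads outside ribosomal and organellar loci numbered 75054 to 145721 in water libraries and 81921 to 160463 in treated ones.

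**Figure D4:**
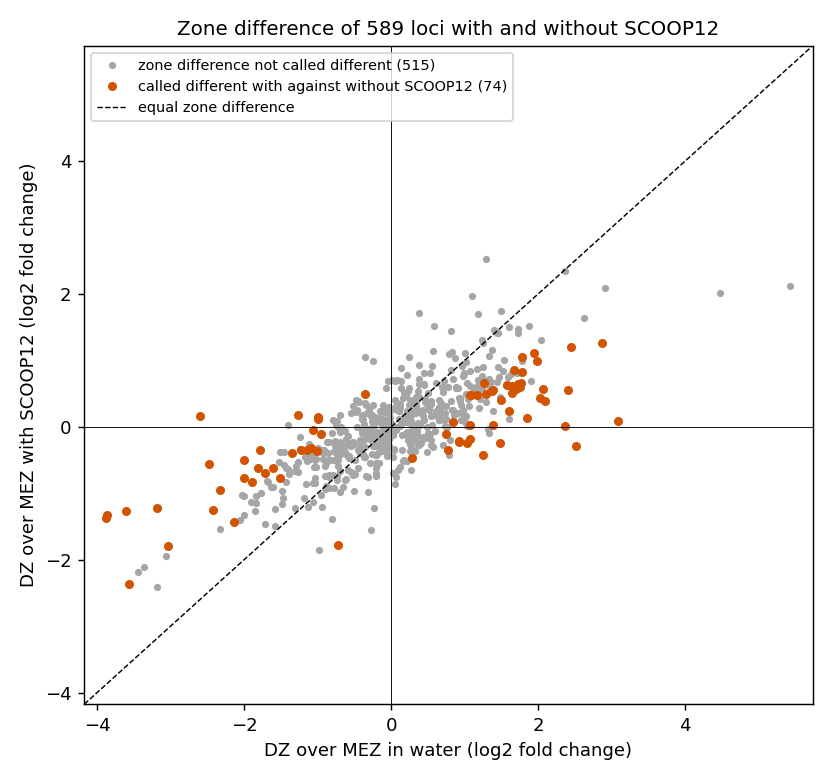
Log2 fold change of DZ over MEZ with SCOOP12 (y axis) against that in water (x axis) for 589 loci; orange points are the 74 loci whose zone difference was called different between treatments, and the dashed line marks equal differences. Of the 74 orange points, 71 have a smaller absolute difference with SCOOP12.

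The difference between treatments passed at 74 loci (12.6%), 30 with a higher (5.09%) and 44 with a lower (7.47%) log2 DZ over MEZ under the peptide. This split was 38 against 38 with another size factor (RLE) and 37 against 35 when ribosomal and organellar loci were removed. At 71 of the 74 the absolute zone difference was smaller with SCOOP12. The 3 exceptions were AT1G04367, AT2G21187 and AT5G06865. At 15 the sign was opposite, at 30 the zones differed in water and not with SCOOP12, and at 40 they differed in both in the same direction. A further 81 loci passed in water alone, and their difference between treatments did not pass. Without the replicate block 28 passed. The count was 48 without Ws MEZ SCOOP12 replicate 3, 49 without Ws DZ SCOOP12 replicate 3, 33 without Ws DZ control replicate 4 and 45 without proscoop12 DZ SCOOP12 replicate 4.

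Levels with SCOOP12 were set against water within each zone. Of 41 such loci higher in DZ in water, 38 were lower in DZ with SCOOP12 than in water, with a median log2 change of -0.54, and 35 were higher in MEZ, with a median of 0.47. Of 30 loci lower in DZ in water, all 30 were higher in DZ with SCOOP12, with a median of 0.71, and 27 were lower in MEZ, with a median of -0.34. Over all tested loci the medians were -0.0038 in DZ and -0.012 in MEZ. The loci were selected by this difference, which largely fixes the direction of the shifts, so they are a description with no test.

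AT3G00880 had the smallest p. This misc_RNA at chr3:19152552-19153403 overlaps no coding exon. With SCOOP12 it had 232 to 794 CPM in DZ with a median of 338, against 479, 383 and 468 CPM in proscoop12 MEZ and 316 and 372 CPM in Ws MEZ. In water it had 2039, 1601 and 1669 CPM in proscoop12 DZ and 1383 and 2000 CPM in Ws DZ, against 219 to 339 CPM in MEZ. The zones overlapped with SCOOP12 and did not overlap in water, and treated DZ lay below all DZ water libraries. The log2 fold change was -0.29 with SCOOP12 and 2.51 in water, a difference of -2.72 (SE 0.23, edgeR adjusted p 6.13e-08). The ncRNA AT1G31935 also had treated DZ libraries below all DZ water libraries. With SCOOP12 it had 629.5 to 1046 CPM in DZ with a median of 764.3 and 756.6 to 1200 CPM in MEZ, and in water it had 2137 to 3333 CPM in DZ and 715.6 to 1281 CPM in MEZ. Its difference was -1.72 (SE 0.24, edgeR adjusted p 5.85e-05).

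The promoters of these 2 loci are shown with TATAAA in capitals, on either strand. That of AT3G00880 lies at chr3:19152302-19152601 and that of AT1G31935 at chr1:11469232-11469531, both on the plus strand. No other motif searched was found in either window.
AT3G00880: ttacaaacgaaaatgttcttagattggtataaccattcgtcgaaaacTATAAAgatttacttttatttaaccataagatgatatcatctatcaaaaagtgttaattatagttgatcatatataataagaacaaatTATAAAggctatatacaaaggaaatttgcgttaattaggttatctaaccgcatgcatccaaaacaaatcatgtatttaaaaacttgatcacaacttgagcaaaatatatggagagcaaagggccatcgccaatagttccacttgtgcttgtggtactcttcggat
AT1G31935: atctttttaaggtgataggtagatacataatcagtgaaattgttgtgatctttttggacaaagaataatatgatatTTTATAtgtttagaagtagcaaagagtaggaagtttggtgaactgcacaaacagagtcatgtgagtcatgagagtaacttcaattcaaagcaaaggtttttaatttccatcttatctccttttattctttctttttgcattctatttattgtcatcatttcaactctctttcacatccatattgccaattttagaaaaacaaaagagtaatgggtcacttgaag

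AT4G02845 and AT3G52748 differed from water mainly in MEZ. AT4G02845, a misc_RNA, had 335 to 673 CPM in treated DZ and 239 to 508 CPM in treated MEZ, and in water 348 to 663 CPM in DZ and 92.6 to 165 CPM in MEZ. Every treated MEZ library was thus above every MEZ water library, while DZ levels overlapped. The log2 fold change was 0.43 with SCOOP12 (edgeR adjusted p 0.00613) and 2.03 in water, a difference of -1.58 (SE 0.18, edgeR adjusted p 6.26e-06). AT3G52748, an ncRNA, had 514 to 1584 CPM in treated DZ and 646 to 1150 CPM in treated MEZ, and in water 611 to 2004 CPM in DZ and 99.4 to 389 CPM in MEZ. Its difference was -2.36 (SE 0.29, edgeR adjusted p 1.43e-05). AT2G14878, an ncRNA, was at 0.02 with SCOOP12 and 1.38 in water, a difference of -1.37 (SE 0.18, edgeR adjusted p 2.67e-05).

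**Figure D5:**
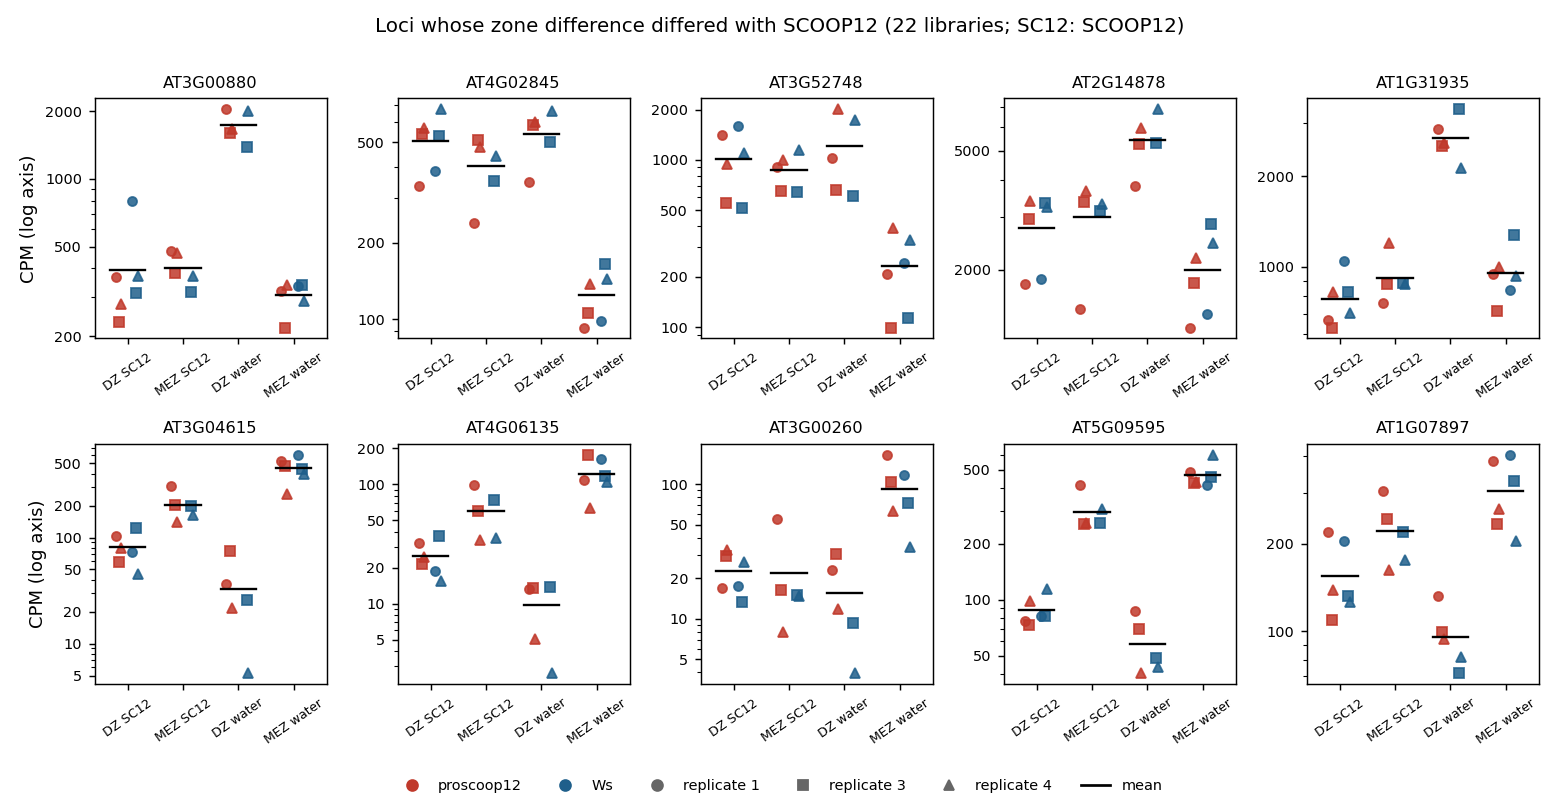
CPM (y axes, log scale) of 10 loci in DZ and MEZ with SCOOP12 (SC12) and in water; symbols give the replicate, colours the genotype and lines the mean. In the upper row DZ exceeds MEZ in water, and in the lower row MEZ exceeds DZ in water; in all 10 the fitted log2 zone difference is smaller with SCOOP12.

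The other 5 named loci were higher in MEZ in water. AT3G04615, described above, had log2 fold changes of -1.36 with SCOOP12 and -3.87 in water, a difference of 2.69 (SE 0.37, edgeR adjusted p 4.92e-05). AT4G06135, opposite another dirigent-like gene, AT4G13580, was at -1.27 with SCOOP12 and -3.61 in water, a difference of 2.36 (SE 0.41, edgeR adjusted p 0.000675). Dirigent proteins guide the coupling of lignan and lignin radicals. AT5G09595, opposite GMD1, a GDP-mannose dehydratase of fucose synthesis, and AT1G07897, a snoRNA locus, had differences of 1.29 (edgeR adjusted p 0.0033) and 0.998 (edgeR adjusted p 0.00421). AT5G09595 also overlaps a coding exon on its own strand. AT3G00260, a misc_RNA, was at 0.16 with SCOOP12 (edgeR adjusted p 0.761) and -2.59 in water, a difference of 2.92 (SE 0.57, edgeR adjusted p 0.00235). The calls of these 10 loci were kept in all 290 values from alternative fits.

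The zone difference with SCOOP12 was not called different between the genotypes. No locus passed for proscoop12 against Ws, 0 by edgeR and 0 by DESeq2, while 20 loci (3.4%) had an unadjusted p under 0.05 by edgeR's quasi-likelihood test and 13 by DESeq2. The smallest p belonged to AT4G39366, a snoRNA, with a difference of 1.97 (SE 0.64), to AT3G00880 with -0.80 (SE 0.27) and to AT5G00715, a misc_RNA, with 1.75 (SE 0.60), each at an edgeR adjusted p of 0.992. In AT3G00880 treated proscoop12 had 366, 232 and 279 CPM in DZ and 479, 383 and 468 CPM in MEZ. Treated Ws had 794, 311 and 370 CPM in DZ and 316 and 372 CPM in MEZ. With 2 Ws MEZ libraries, differences of the size of these errors could not be resolved.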

How the data were processed

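Libraries of root RNA were made with a stranded Illumina mRNA kit and read as paired ends, per the labels' protocols. The authors deposited, for each library, estimated counts and TPM values from Salmon on 5224 listed non-coding transcripts, per the file headers and the submitters' processing notes, which also name DESeq2. The sources used here give no genome build, annotation or strand setting. TPM sums to 1000000 in each library and was used only as a check. Estimated counts were rounded to whole numbers, and between 1.72% and 2.01% of values in a treated library were fractional.

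Loci were kept by edgeR's filterByExpr (minimum count 10, minimum total 15), scaled by TMM and tested with edgeR 4.0.16 (R 4.3.3) in a model of zone, genotype and replicate number on the 11 treated libraries, with Benjamini-Hochberg adjustment over 589 loci. The filter used the treated libraries only. The water libraries were fitted likewise on the same 589 loci, and all 22 together for the difference between treatments. Loci with reads mainly in water may therefore be missing. Positive values mean higher in DZ. Read totals were 474436 to 1575523 in treated libraries and 533272 to 1183346 in water. Labels do not say whether replicates came from separate plants, so a p-value covers spread among libraries that may be technical. The numbers were taken as pairs: deviations of same-numbered treated libraries correlated at 0.23 to 0.77 in 15 pairs, and others at -0.58 to 0.17. Deviations were from group means, so positive correlations within numbers force negative ones between numbers on average. The contrast is therefore no separate evidence of pairing. Gene models came from RefSeq's TAIR10.1, a Col-0 assembly, with 5182 loci matched; sequence shared with organellar genomes was found with blastn 2.17.0.

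Named loci were up to 14 each way that passed with the largest fold changes, averaged 20 CPM or more, and had zones that do not overlap, no coding exon on the same strand and no near-identical coding copy. Added to these were small or named RNAs that passed, loci opposite listed genes, and up to 5 loci each way per interaction. Members and lists were chosen with earlier results of these data known. DESeq2 1.42.0, other size factors, filters, blocks, subsets of replicates and single genotypes, and leaving out each library, were alternatives.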

Additional observations from a re-analysis of the deposited data

Results flagged for a closer look

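In 8 of 96 groups of treated libraries that were checked (8.33%), the highest or lowest library lay far from the rest; chance gives about 1 in 20 such groups. Ws DZ replicate 1 was high for AT2G41312 at 145.7 CPM and for AT4G03585, opposite CYP86A2, at 153.1 CPM. Ws DZ replicate 3 was high for AT1G19968 at 33.6 CPM, and proscoop12 DZ replicate 3 was low for AT2G31751 at 47.9 CPM. In MEZ, proscoop12 replicate 1 was high for AT4G03985 at 156.9 CPM, for the snoRNA locus AT1G04187 at 10.5 CPM and for AT5G60022, opposite the laccase gene LAC17, at 33.7 CPM. The same library had the lowest share of reads on nuclear ribosomal RNA in its group, 58.8%.

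The log2 zone difference with SCOOP12 against water was different by edgeR's quasi-likelihood test at the 10 loci named for it. It was 2.69 in AT3G04615, 2.36 in AT4G06135, 2.92 in AT3G00260, 1.29 in AT5G09595 and 0.998 in AT1G07897. It was -2.72 in AT3G00880, -1.58 in AT4G02845, -2.36 in AT3G52748, -1.37 in AT2G14878 and -1.72 in AT1G31935.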

How the results depend on the processing

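Without the replicate block 47 loci passed between zones with SCOOP12, 253 in water, 28 for the difference between treatments and 0 between genotypes; with the block inside each treatment, chosen after seeing the data, 95 passed for the difference between treatments. Zone counts with SCOOP12 were 139 in replicate 4 alone, 127 in Ws alone and 142 in proscoop12 alone. The count was 120 in replicates 3 and 4 without the block, also chosen after seeing the data. In water replicate 4 alone gave 136 and Ws alone 116. Leaving out a library or replicate 1 gave 191 to 223 loci with SCOOP12, 250 to 276 in water and 33 to 81 for the difference between treatments. The organellar share difference was then 2.70 to 11.0 percentage points, at 10.9 (exact permutation p 0.0317) and 11.0 (p 0.0238) without Ws DZ replicates 3 and 4, and the nuclear ribosomal one -11.1 to -3.49 points. DESeq2 gave 205 loci with SCOOP12 and RLE size factors 222. With no filter on reads 221 loci passed with SCOOP12 and 356 in water. Of the values of named loci under alternatives, 1542 kept the call or its absence, 124 lost the call and 3 gained it. Among values called in either fit, 0 reversed direction. Values called in neither fit could change sign. AT4G03585 with SCOOP12 was at 0.09 as reported and at -0.23 in replicates 3 and 4 without the block. Depth limits rare loci: 589 of 2335 loci with reads could be tested.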

Other observations

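AT1G05347 was the only locus called in both treatments in opposite directions. Its log2 fold change of DZ over MEZ was -0.35 with SCOOP12 (edgeR adjusted p 0.0325) and 0.78 in water (edgeR adjusted p 0.00154). It overlaps a coding exon on its own strand, so its reads may belong to that gene.

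Other snoRNA loci passed in both treatments, but their calls with SCOOP12 depended on the fit. AT1G04187 was at 1.74 with SCOOP12 and 1.49 in water, and without the replicate block it was at 1.98 with SCOOP12 (edgeR adjusted p 0.0656). AT5G08495 was at 1.16 with SCOOP12 and 1.38 in water. Its treated call was lost without the replicate block (edgeR adjusted p 0.0864), without replicate 1 (0.0702), without proscoop12 MEZ replicate 1 (0.0591) and without Ws MEZ replicate 3 (0.0539). AT5G02575 was lower in DZ, at -0.68 with SCOOP12 and -1.26 in water. Its treated call was lost without the replicate block (-0.51, edgeR adjusted p 0.459), with DESeq2 (adjusted p 0.068) and without replicate 1 (edgeR adjusted p 0.0618). It was also lost without proscoop12 MEZ replicate 1 (edgeR adjusted p 0.0684), Ws MEZ replicate 3 (0.135), Ws DZ replicate 3 (0.0686), proscoop12 MEZ replicate 4 (0.0713) and proscoop12 DZ replicate 4 (0.0575).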
